A study of Mus musculus with 3 samples.

Results

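Follicular-like mature B cells were examined in peripheral blood (PB) from naive mice and from mice that carried SCLL, a leukemia and lymphoma of stem cell origin that FGFR1 fusion kinases drive. Members were chosen by a gate on unique molecular identifiers (UMIs), each UMI standing for 1 captured RNA molecule. A barcode had to show 200 genes or more, no more than 10% mitochondrial UMIs, at least 3 UMIs of Cd79a, Cd79b and Ms4a1 summed, and at least 2 of Ighd and Fcer2a summed. It could hold at most 2 UMIs of the B1-associated genes Cacna1e, Il5ra, Nid1 and Sox5, at most 2 of the early B genes Vpreb1, Igll1, Dntt and Rag1, and at most 1 of Cd3e and F13a1. The gate found 317 members among the 12792 barcodes that passed the gene and mitochondrial filters. These were 182 of 3811 barcodes in the naive library, 116 of 4567 in the library taken 11 days after engraftment (D11) and 19 of 4414 in the library taken at 14 days (D14).

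The study engrafted BBC2 cells, an SCLL line of pro-B type grown from primary mouse leukemia, into wild type Balb/C mice, which its methods describe as young adult females, and sampled intermediate disease at D11 and late disease at D14. The naive mice were wild type Balb/C and carried no leukemia. Red cells were lysed, dead cells were removed, and RNA was counted with 10x Genomics 3′ v3 chemistry. There was 1 library per condition, and the number of mice behind each library is not given in the sources used here, so differences between conditions cannot be told apart from differences between libraries or animals, and no test was made. Brackets hold exact 95% intervals, which cover counting error only.

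Follicular B cells are the recirculating mature B cells of blood, spleen and lymph node. They carry IgM and IgD of the same specificity on the surface, together with the low affinity IgE receptor CD23 (Fcer2a), and signal through Cd79a and Cd79b. They depend on the survival factor BAFF, follow CXCL13 and CCL21 through Cxcr5 and Ccr7, leave lymphoid tissue by S1pr1, and present antigen to T cells on MHC class II. B1 cells are a separate lineage that makes natural antibody.

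Follicular-like B cells made up a smaller share of the PB barcodes in both leukemic libraries. Of the filtered barcodes they were 4.78% [4.12, 5.50] in naive blood, 2.54% [2.10, 3.04] in the D11 library and 0.430% [0.259, 0.671] in the D14 library. The D11 share was 0.532 times [0.418, 0.675] and the D14 share 0.0901 times [0.0530, 0.145] the naive one. The 3 intervals of the share do not overlap. In droplet data fewer B cells and more of other cells give the same share, and the 2 cannot be told apart. Barcodes with at least 50% hemoglobin UMIs that lay outside the gate numbered 63, 1343 and 1057 in naive, D11 and D14, and over barcodes with under 10% hemoglobin UMIs the D11 ratio was 0.714 [0.556, 0.913] and the D14 ratio 0.116 [0.0670, 0.188].

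Relative to other lymphocytes the picture differed by partner. Per barcode of the B1-like gate, which is the same gate with at least 3 UMIs of the B1-associated genes, naive blood held 1.44 [1.14, 1.83] members, D11 blood 1.30 [0.980, 1.74] and D14 blood 1.36 [0.645, 2.93], so that the intervals of the 3 libraries overlap. Per T marker barcode, with at least 3 UMIs of the Cd3 genes, none of Cd79a, Cd79b and Ms4a1 and under 50 of S100a8 and S100a9, the naive, D11 and D14 libraries held 0.159 [0.135, 0.186], 0.475 [0.378, 0.595] and 0.192 [0.111, 0.316] members. Members per T marker barcode were thus highest at D11, and the D14 interval took in the naive value.

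**Figure D1:**
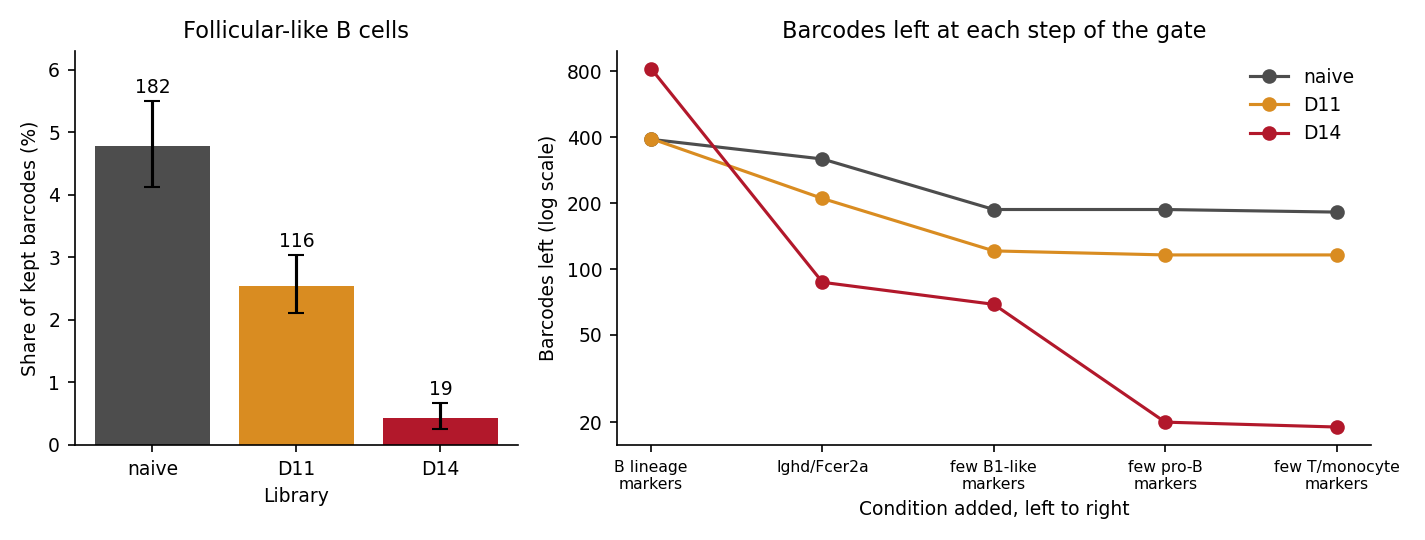
Left, share of filtered barcodes that were follicular-like B cells (%) in each library, with exact 95% intervals and the number of members above each bar. Right, barcodes left (log scale) as each condition of the gate was added; at D14 the step on early B genes took 69 barcodes down to 20, whereas in the naive library it removed none of 187.

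Most barcodes with B markers at D14 held under 2 UMIs of Ighd and Fcer2a. Barcodes with at least 3 UMIs of Cd79a, Cd79b and Ms4a1 numbered 391, 394 and 822, but those that also held at least 2 of Ighd and Fcer2a numbered 318, 210 and 87. The condition on early B genes then took out 0, 5 and 49 barcodes. At the gate's limit 13, 12 and 5 members had exactly 2 UMIs of Ighd and Fcer2a, while 12, 15 and 1 barcodes that met every other condition had 1, and 7, 15 and 22 had 0. At the B1 limit 35, 21 and 2 members held 2 UMIs, and 22, 10 and 2 barcodes of the B1-like gate held 3.

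Markers outside the gate were those of B cells. Pax5, which holds the B cell fate, had a UMI in 99.5%, 100% and 100% of naive, D11 and D14 members, and in 1.14%, 0.820% and 6.06% of T marker barcodes. Bank1, a B cell adaptor, was found in 99.5%, 100% and 100% of members. Neither marker sets members apart from B1-like barcodes, which in the naive library held 1509 CPM of Pax5 and 3432 CPM of Bank1 against 1652 and 3854 CPM in members. D14 barcodes with at least 3 UMIs of Cd79a, Cd79b and Ms4a1 and over 2 of the early B genes held 655 CPM of Pax5 and 27.0 CPM of Bank1. D14 members held 1129 and 3255 CPM, so that the gap to those barcodes was wide for Bank1 and smaller for Pax5. Cr2 (CD21), the complement receptor of mature B cells, was found in 58.2%, 56.0% and 47.4% of members, against 0.612% and 0.820% of naive and D11 T marker barcodes. Median UMIs were 6023, 5231.5 and 4459 per member and 9237, 7261.5 and 7618 per T marker barcode, and T marker barcodes were chosen to lack Cd79a, Cd79b and Ms4a1, so their shares can understate the background of free RNA. Against T marker barcodes Cd37, a tetraspanin of many leukocytes, was the exception among the 8 markers, with a UMI in 62.6% of those from the naive library. Bank1 had a UMI in 15.6%, 17.9% and 8.17% of the neutrophil marker barcodes defined below.

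The genes of the gate itself are given as a description. Ighd had 1054, 926 and 769 CPM (UMIs of the summed members of a library, scaled to a total of 1000000), Fcer2a 470, 323 and 266 CPM, Ms4a1 711, 575 and 655 CPM, and Cd79a 1536, 1306 and 892 CPM in naive, D11 and D14. All 4 were lower in the leukemic libraries than in the naive one, but some by little once members with red cell or neutrophil RNA (next paragraph) were left out. Without those members the D11 log2 ratios over naive were -0.01, -0.32, -0.16 and -0.06 in the same order of genes. At D14 they were -0.31, -0.89, -0.02 and -0.68.

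Red cell RNA sat mostly in a few members, and neutrophil RNA did so in the naive and D11 libraries but not at D14. Hemoglobin took 0.600%, 9.29% and 6.34% of the members' UMIs, and 92.5%, 97.5% and 98.8% of it lay in the 3, 10 and 1 members with over 10% hemoglobin. The 8 red cell genes summed to 6037, 93248 and 63811 CPM, with Hbb-bs the most abundant and with Slc4a1 at 0 in the naive library. The 12 neutrophil genes summed to 2082, 7531 and 740.1 CPM, led by S100a9. Of the 12, 10, 12 and 9 had a UMI, with Camp and G0s2 at 0 in naive and Mmp9, Cxcr2 and G0s2 at 0 in D14 members. S100a9 was found in 35.2%, 46.6% and 78.9% of members, and members with over 5 UMIs of S100a8 and S100a9 held 94.8%, 97.9% and 20% of those UMIs. Without the 10, 14 and 2 members that held over 1% hemoglobin or over 5 UMIs of S100a8 and S100a9, termed carriers here, the red cell sums were 257, 2556 and 744 CPM and the neutrophil sums 122, 189 and 722 CPM. Carriers were kept in the values below, and values without them stand beside many of the calls they change. All lists were also computed without carriers, but not all of those values are printed. The comparison of members with B1-like barcodes includes them.

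Other cell types left little trace in the members. The 10 T cell genes summed to 30.9, 29.5 and 9.49 CPM, against 4170, 4162 and 3911 CPM in T marker barcodes, with a UMI in 7, 5 and 1 of the 10, and Cd8a and Cd8b1 were at 0 in every library. The 10 monocyte genes summed to 51.7, 261 and 37.95 CPM, with Ccr2, Ace and Cd300e at 0 throughout, and at D11 Lyz2 gave 148 of the 177 UMIs. The 7 NK cell genes had 2, 2 and 0 UMIs, and the 6 platelet genes 7, 17 and 0 UMIs, led by Itga2b in naive and Pf4 at D11. The 12 leukemia and progenitor genes had 125, 27 and 10 UMIs, most of them from Lef1, and Cd34, Kit, Fgfr1 and Rag1 were at 0 in all 3 libraries. Of the 12, Vpreb1, Igll1, Dntt and Rag1 were limited by the gate itself. Of the 6 plasma cell genes Jchain and Tnfrsf17 were at 0 in each library, and Mzb1, which mature B cells share, gave 203 of 241, 128 of 145 and 13 of 16 UMIs.

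**Figure D2:**
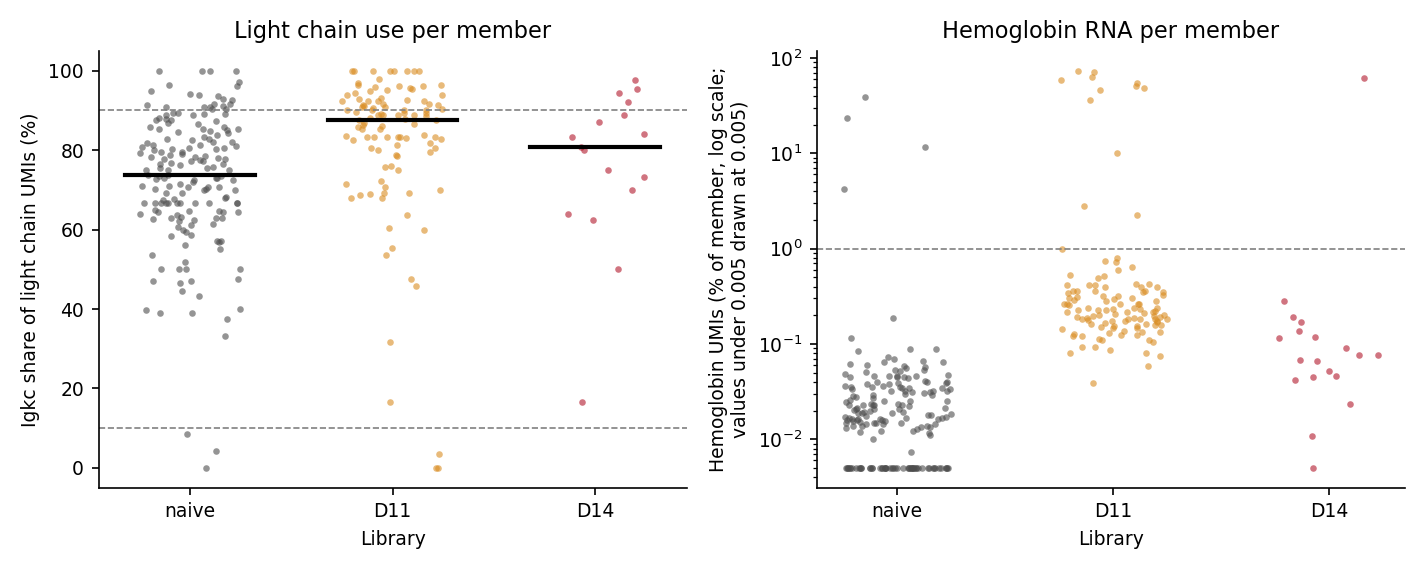
Each point is 1 member. Left, percent of light chain constant UMIs that were Igkc, with the median as a bar and the limits of 90% and 10% dashed, for the 171, 106 and 17 members with at least 5 light chain UMIs. Right, percent of a member's UMIs from hemoglobin genes on a log scale, where 3, 10 and 1 members lie above 10% and the dashed line is the 1% limit for carriers.

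Fewer genes lay past 2-fold at D11 than at D14, where the sum is small. The sums held 1101644, 677045 and 105389 UMIs. Genes were compared where the higher sum had at least 100 CPM and at least 10% of its members had a UMI. A gene that passed only through the sum where it is high had to differ, so counts over a list are a description. At D11, 20 of 1947 genes (1.03%) were at least 2-fold higher than naive and 18 (0.924%) at least 2-fold lower, and at D14, 99 of 2123 (4.66%) were higher and 144 (6.78%) lower. With each sum thinned to the smallest these were 103 higher and 205 lower at D11, and 170 and 244 at D14. At D14 the higher genes had a median of 18 UMIs, and in 17 of the 99 a single member gave 50% or more of them. On the log2 scale all genes compared had medians of -0.14 (D11) and -0.06 (D14), and without carriers of 0.02 and 0.07, so values at D11 are read against that shift. Without carriers, 17 of 2036 genes (0.835%) were at least 2-fold higher at D11 and 8 (0.393%) lower, and 163 of 2284 (7.14%) and 131 (5.74%) at D14.

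Several of the largest ratios at D11 rested on carriers. The 8 largest were those of Alas2, Lyz2, Prdx2, Stat4, Mkrn1, S100a9, Anxa1 and March2. Alas2, the first enzyme of heme synthesis, had 9.99 CPM in naive and 189 CPM at D11, a log2 ratio of 4.24 [3.36, 5.28], and without carriers 2.16. Lyz2, the lysozyme of myeloid cells, had 20.9 and 219 CPM, with 52.7% of its D11 UMIs in 1 member, and its log2 ratio of 3.39 was 0.94 without carriers. Mkrn1 was at 63.5 and 245 CPM with a ratio of 1.95 that was 0.17 without carriers, and Anxa1 turned from 1.74 to -0.34. Of the 20 genes at least 2-fold higher, 9 were also so without carriers, and 4 of those 9 were hemoglobin genes.

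Stat4 had the largest D11 ratio among the 5 genes besides hemoglobin that were also past 2-fold without carriers. Stat4 (ENSMUSG00000062939, chromosome 1 from 51987148 to 52107189 of GRCm38) encodes a transcription factor that carries signals from the interleukin 12 receptor. It had 49.9 CPM in naive members, 201 CPM at D11 and 161 CPM at D14, and both leukemic libraries stood above the naive one. Its log2 ratios over naive were 2.01 [1.55, 2.49] and 1.69 [0.81, 2.50], and 2.19 and 1.80 without carriers. Stat4 was detected in 19.8% of the naive members and in 41.4% and 42.1% of those from D11 and D14. With each cell thinned to 2000 UMIs, which left out 1, 4 and 1 members, those shares were 8.84% [5.14, 14.0], 24.1% [16.5, 33.1] and 27.8% [9.69, 53.5]. B1-like barcodes had 36.2, 37.98 and 83.6 CPM. T marker barcodes held more Stat4, 276, 319 and 402 CPM. Whether T cell RNA added to the Stat4 of the members was not tested, and the gate itself limited Cd3e.

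The other 4 genes at least 2-fold higher at D11 with and without carriers were Fkbp5, Pde3b, Gm47782 and 4933406I18Rik, which were chosen after their values were seen. Their D11 ratios were 1.27, 1.13, 1.38 and 1.39. Fkbp5 encodes a co-chaperone of the glucocorticoid receptor and Pde3b a cyclic nucleotide phosphodiesterase. Fkbp5 had 52.6, 127 and 66.4 CPM in naive, D11 and D14, so that its D14 level lay near the naive one. Ptpn22, a phosphatase that damps antigen receptor signals, had 125, 245 and 436 CPM, with log2 ratios of 0.97 [0.63, 1.31] and 1.80 [1.29, 2.29], and was likewise chosen after its values were seen. It was higher in T marker barcodes too, with ratios of 0.55 [0.40, 0.69] and 1.45 [1.29, 1.61], and in B1-like barcodes, with 1.23 [0.95, 1.51] and 1.75 [1.39, 2.11].

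Several heat shock chaperones lay above their naive level in members of both leukemic libraries. Chaperones of this class refold or hold damaged proteins, and heat shock factor 1 drives the inducible ones through paired GAA blocks in their promoters. Of 17 genes listed, 6 could be compared at D11 and all 6 had a ratio above 0, against 29.6% of all genes compared, with a median of 0.37 and none past 2-fold. Hspe1 passed the 100 CPM minimum only through the D11 sum, and Hsph1 was under it. Without carriers 1 of 7 was past 2-fold at D11, Hsp90aa1 at 1.07, against 0.835% of all genes, and the median was 0.55 where that of all genes was 0.02. At D14, 8 were compared, with a median of 0.48, but Hspe1, Hsph1 and Hspa1b passed only through the D14 sum. Of the other 5, Hspa5 was at -0.04 and 4 lay between 0.28 and 0.98. Hsph1 and Hspa1b were past 2-fold, which the minimum favours, against 4.66% of all genes, and without carriers Hsp90aa1 was too, at 1.08, against 7.14%. With genes chosen by a mean of at least 50 CPM over the 3 sums, a setting added after the data were seen, the medians were 0.49 and 0.35. Hsp90aa1, the inducible cytosolic HSP90, had 198, 365 and 389 CPM, and log2 ratios of 0.88 [0.61, 1.15] and 0.98 [0.46, 1.46]. Hsph1, a nucleotide exchange factor of HSP70, had 25.4, 90.1 and 171 CPM, with ratios of 1.83 [1.16, 2.53] and 2.75 [1.81, 3.65]. Hspa1b, an inducible HSP70, had 0 UMIs in 182 naive members, 7 at D11 and 15 at D14, which is at least 52.3-fold higher at D14 against a floor of 3 UMIs in the naive sum. Its 15 UMIs came from 26.3% of the D14 members, and 1 member gave 53.3% of them. Hspa1a, whose sequence is nearly the same and which can share reads with it, had 0, 5 and 3 UMIs. The constitutive Hspa8 and Dnaja1 had smaller ratios at D11, 0.47 [0.26, 0.68] and 0.49 [0.21, 0.77].

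Promoter stretches of 3 of these genes are shown because the genes lay above naive together and hold paired blocks. Paired blocks were searched as GAANNTTC and TTCNNGAA, each its own reverse complement, so that 1 strand covers both, in the 250 bases before the start in RefSeq promoters (GRCm38.p6). The 2 motifs can overlap when 3 blocks follow each other. Of 12 listed chaperone genes with a promoter entry 7 held a match (58.3%), namely Dnaja1, Hspa1a, Hspa1b, Hspb1, Hspd1, Hspe1 and Hsph1, and of all 27025 genes 3932 did (14.5%). The 7 are not all separate. Hspd1 and Hspe1 share the same stretch, read on opposite strands, and the stretches of Hspa1a and Hspa1b have the same letters. Hsp90aa1 and Hspa8 were among the listed genes without a promoter entry. A gene counted when any of its promoter entries held a match, which 1 of 3 entries did for Dnaja1 and 1 of 2 for Hspd1. The Dnaja1 stretch lies upstream of that 1 RefSeq start but inside the GENCODE gene, which begins at 40722150. The Hsph1 stretch, apart from its first base, also lies inside its GENCODE gene, which begins at 149636376 on the minus strand. Capitals mark the fixed letters of a match, and each sequence runs 5′ to 3′ on the strand of the gene.
Hsph1, chr5:149636354-149636377, minus strand: tagaatctTTCtcGAAggctcgag
Hspa1b, chr17:34959327-34959350, minus strand: aactgctgGAAgaTTCctggcccc
Dnaja1, chr4:40722336-40722359, plus strand: agcctctaGAAaaTTCtacgaggc
A match is a description of the letters and was not tested as a binding site.

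Values of Hsp90aa1, Hspa1b and Hsph1 in other cells are given, chosen after their values were seen, and the list was not counted there. T marker barcodes gave Hsp90aa1 ratios of 0.83 [0.71, 0.94] and 0.70 [0.52, 0.87] and Hspa1b ratios of 2.60 [1.68, 3.52] and 5.87 [5.18, 6.63] for D11 and D14. Hspa1b was also at 5.33, 22.8 and 113 CPM in neutrophil marker barcodes, which hold at least 50 UMIs of S100a8 and S100a9 and none of the 3 B genes. In B1-like barcodes Hsph1 had ratios of 1.29 [0.61, 2.01] and 1.04 [-0.11, 2.09]. The difference to the members' ratios was not tested.

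**Figure D3:**
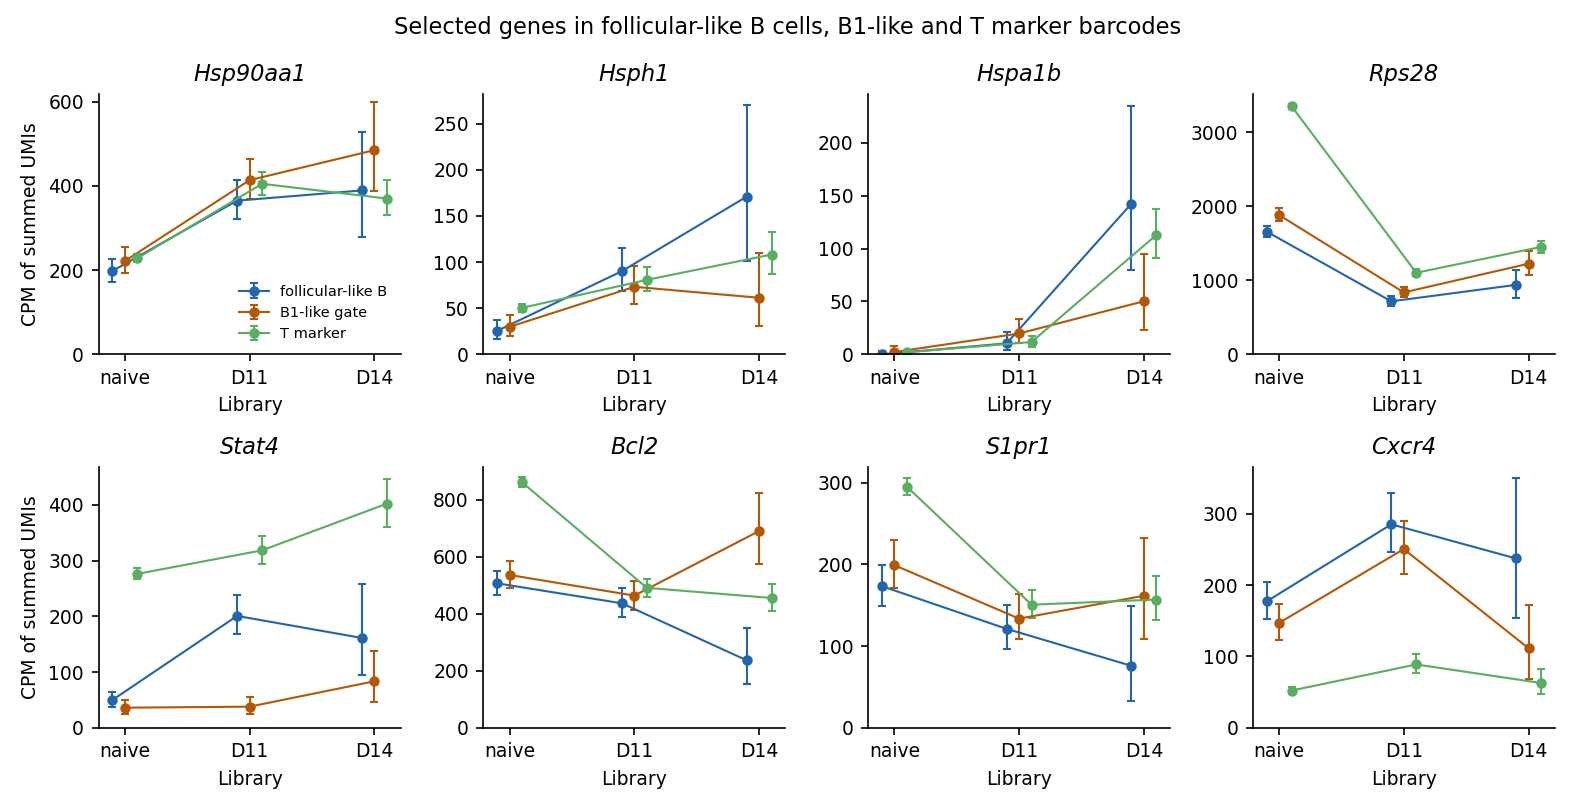
CPM of summed UMIs with exact 95% Poisson intervals (linear axes, libraries on the x axis) for 8 genes in follicular-like B cells, B1-like barcodes and T marker barcodes. Hsp90aa1 lies between 198 and 228 CPM in naive and between 365 and 485 CPM in the leukemic libraries in all 3 populations, Rps28 is lower in all 3 at D11, and Stat4 is 201 CPM in D11 members against 37.98 CPM in B1-like barcodes.

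A few ribosomal protein genes were at least 2-fold lower at D11, in members and in other populations. Of 96 genes listed 83 could be compared at D11, the median was -0.05, and 4 were at least 2-fold lower against 0.924% of all genes. These were Rps28, Rps29, Rpl35 and Rpl38, all parts of the cytosolic ribosome. Rps28 (ENSMUSG00000067288, chromosome 17 from 33819027 to 33824562) had 1660.2, 716 and 939 CPM, with log2 ratios of -1.21 [-1.36, -1.07] and -0.82 [-1.13, -0.53]. Rps29 had 3598, 1642 and 2230 CPM, a ratio of -1.13 [-1.23, -1.04] at D11. Both D11 levels were the lowest of the 3 libraries. In T marker barcodes the D11 ratio was -1.61 [-1.67, -1.54] for Rps28 and -1.55 [-1.60, -1.51] for Rps29, and in B1-like barcodes -1.17 [-1.31, -1.04] and -1.09 [-1.18, -0.99]. Without carriers only Rps28 of the 4 stayed past 2-fold in members, at -1.03, against 0.393% of all genes, and the list median was 0.11. At D14 none of 82 was past 2-fold, against 6.78% of all genes lower, and without carriers 1 of 83 was, Rps6kb1 at -1.01, against 5.74%. The list was taken by symbol, and Rps6kb1 is 1 of 10 genes in it with kinase symbols (Rps6k), of which 3 were compared. The respiratory chain genes had 22 of 95 compared at D11, with a median of -0.18 and none past 2-fold, and 24 at D14, with a median of 0.00 and 1 lower, against 6.78% of all genes. Without carriers their medians were 0.03 and 0.13.

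Of the other genes with the largest decreases at D11, 3 are annotated as antisense transcripts in GENCODE vM21, namely Gm11342, 2010309G21Rik and Brip1os. Whether counting used strand is not given in the sources used here, so their reads and those of their partner genes cannot be told apart. Gm11342 (ENSMUSG00000084788, chromosome 13 from 24335937 to 24414803) had 127, 31.0 and 85.4 CPM, a log2 ratio of -2.03 [-2.77, -1.37] at D11, and -1.86 without carriers. B1-like barcodes had 121, 47.8 and 5.57 CPM of it. 2010309G21Rik (chromosome 16 from 19051367 to 19106749, plus strand), which spans the lambda constant gene Iglc1 (19061618 to 19062071, minus strand), was at 288, 108 and 161 CPM, a D11 ratio of -1.42 [-1.80, -1.04]. Lambda transcripts, described with the light chains, were lower at D11 too. D1Ertd622e and Brip1os had ratios of -1.23 and -1.17, and without carriers Brip1os was not among the genes at least 2-fold lower. Lrmp, an endoplasmic reticulum membrane protein of lymphocytes, had 444, 202 and 436 CPM, so that its D14 level lay next to the naive one. Txndc11, a thioredoxin domain protein, had 131, 59.1 and 94.9 CPM, and a ratio of -1.15 [-1.69, -0.63].

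Genes lower at D14 were read from few UMIs in the 19 members. Enox2 (chromosome X from 49009707 to 49288259) had 191 UMIs in naive, 88 at D11 and 0 at D14, which is a log2 ratio at or under -2.61 with D14 at the floor of 3 UMIs. In B1-like barcodes at D14 it was at 156 CPM against 165 CPM in naive. Gmds, which makes GDP-fucose, had 172, 167 and 28.5 CPM, a ratio of -2.60 [-4.89, -1.03]. Kynu, the kynureninase of tryptophan breakdown, had 303, 298 and 56.9 CPM, a ratio of -2.41 [-3.87, -1.28]. At D11 both lay near naive, with ratios of -0.05 and -0.02. Fam168b, Sap130, Atp6v0a1 and Tpd52 had 3 UMIs each at D14, and ratios from -2.29 to -2.16. Hmgb2, a chromatin protein that is high in dividing cells, had 172, 124 and 37.95 CPM.

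The largest ratios at D14 after Hspa1b and Alas2 rested on few UMIs. Magi1, a scaffold protein, had 29, 31 and 19 UMIs, or 26.3, 45.8 and 180.3 CPM, and 73.7% of its D14 UMIs were in 1 member. Hist1h2be had 15 UMIs at D14, with 60.0% from 1 member. Pnpt1, Slc16a10 and Timmdc1 had 12, 11 and 13 UMIs there, and log2 ratios of 2.33, 2.26 and 2.23. Alas2 had 96.7% of its 30 D14 UMIs in 1 member.

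Most genes of B cell receptor signalling lay below naive, none by 2-fold, but at D11 most lay above it without carriers. Of 18 genes 15 were compared, and 12 were below 0 at D11 and 11 at D14, where 29.6% and 45.8% of all genes were above 0. None was past 2-fold, against 1.03% of all genes higher and 0.924% lower at D11 and 4.66% and 6.78% at D14, and the medians were -0.17 and -0.19. The D11 median lay near the -0.14 of all genes. Without carriers 9 of 15 were above 0 at D11, against 52.8% of all genes, with a median of 0.01. At D14 5 of 15 were above 0 without carriers, against 54.9% of all genes, with a median of -0.18. Of 20 mature B identity genes 19 were compared, none was past 2-fold at D11, and at D14 only Blk and Cd72 were, both lower, against 6.78% of all genes. Their medians were -0.23 and -0.24, and -0.05 and -0.13 without carriers. The kinase Syk had 1670.2, 1589 and 987 CPM, Prkcb 1690.2, 1501 and 1404 CPM, and the adaptor Blnk 761, 690 and 531 CPM. Dok3, an inhibitory adaptor, had the lowest D14 ratio of the list, -0.96, from 129, 139 and 66.4 CPM. Transcripts of the receptor's own chains also lay lower: Ighm had 2005, 1502 and 1385 CPM and Igkc 4708, 4272 and 3653 CPM, and the 5 of 11 constant genes compared were all below 0 in both comparisons, where 29.6% (D11) and 45.8% (D14) of all genes were above 0, with medians of -0.42 and -0.48. Without carriers both medians were -0.27, Igkc lay at 0.10 at D11, and none was past 2-fold at D14, where 1 had been, against 6.78% of all genes lower.

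Most survival genes compared lay below naive at D14. Of 16 genes tied to BAFF, CD40 and survival 9 were compared, with a median of -0.13 at D11, near that of all genes, and -0.48 at D14, where 8 of 9 were below 0 and 45.8% of all genes were above 0. Bcl2, the antiapoptotic protein that keeps resting lymphocytes alive, had 507, 437 and 237 CPM, with log2 ratios of -0.21 [-0.42, -0.01] and -1.10 [-1.74, -0.52], the only gene of the list past 2-fold, against 6.78% of all genes lower at D14. Without carriers the D14 ratio was -0.86. B1-like barcodes had 537, 464 and 691 CPM, and T marker barcodes had ratios of -0.81 [-0.91, -0.71] and -0.92 [-1.07, -0.77]. The BAFF receptor Tnfrsf13c had 143, 131 and 85.4 CPM, Cd40 115, 111 and 114 CPM, and Mcl1 309.5, 306 and 237 CPM. Tnfrsf17, the receptor of plasma cells, was at 0 throughout.

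Trafficking receptors split at D14. Of 17 genes 9 were compared at D11, none was past 2-fold and the median was -0.09, and of 10 at D14, 4 were at least 2-fold lower against 6.78% of all genes, with a median of -0.67. These 4 were S1pr1, Ccr7, Gpr183 and Cd44. S1pr1, the egress receptor, had 173, 121 and 75.9 CPM, with log2 ratios of -0.52 [-0.91, -0.14] and -1.19 [-2.42, -0.18]. Ccr7, which guides cells to lymph node, had 229, 272 and 114 CPM, and Gpr183, the oxysterol receptor of B cell positioning, 221, 174 and 104 CPM. Cxcr5, the follicle homing receptor, had 157, 164 and 133 CPM. Cxcr4, the receptor for CXCL12, had 177, 285 and 237 CPM, with a ratio of 0.69 [0.39, 0.98] at D11, and T marker barcodes had 0.77 [0.51, 1.01]. Without carriers none of the 8 genes then compared at D14 was past 2-fold, and the median was -0.45. With doublets removed it was -0.33 over 9 genes.

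MHC class II lay at its naive level at D11 and under it at D14. Medians over the 10 genes were -0.03 and -0.39, and 0.15 and -0.27 without carriers. At D14 9 of 10 were below 0, where 45.8% of all genes were above 0, and only H2-Oa, a brake on peptide loading, was past 2-fold, against 6.78% of all genes lower, at -1.03 from 128 UMIs in naive and 6 at D14. Without carriers it was at -0.85, and none of the 10 was past 2-fold. Cd74, the invariant chain, had 6846, 6669 and 4792 CPM, and H2-Aa 2794, 2898 and 2088 CPM. Their regulator Ciita had 293, 213 and 275 CPM and had a D14 ratio of -0.09. In B1-like barcodes Cd74 had 5967, 5047 and 3733 CPM, H2-Aa 2291, 2174 and 1688 CPM, and Ciita 242, 149 and 100 CPM. Cd74 and H2-Aa were thus lowest at D14 there as well. Of the MHC class I list 5 of 11 genes were compared at D11 and 6 at D14, with medians of 0.00 and 0.06. B2m had 727, 771 and 816 CPM. Nlrc5, the class I regulator, passed the minimum only through the D14 sum and was the 1 of 6 past 2-fold there, against 4.66% of all genes, from 59 UMIs in naive to 12, a ratio of 1.09 that was 0.80 without carriers.

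Most immediate early genes compared were above naive at D11. Of 20 genes 11 were compared, and 9 lay above 0 with a median of 0.44, against 29.6% of all genes, with none past 2-fold. Jun, Dusp2 and Zfp36 passed the minimum only through the D11 sum, and of the other 8, 6 lay above 0. Without carriers Jun was past 2-fold, at 1.09, against 0.835% of all genes. Jun had 89.9, 157 and 171 CPM, a ratio of 0.80 [0.39, 1.21] at D11, Junb 223, 377 and 133 CPM, and Ier5 104, 176 and 247 CPM. Junb and Cd69, an early activation marker with 186, 180.2 and 85.4 CPM, lay under naive at D14. There 6 of 11 were above 0, against 45.8% of all genes, the median was 0.16, and Ier5 was past 2-fold higher, against 4.66% of all genes, and Cd69 past 2-fold lower, against 6.78%. Without carriers 8 of 11 were above 0 at D14, against 54.9% of all genes, the median was 0.59, Ier5 was at 1.41, and Cd69, at -0.94, was not past 2-fold. In T marker barcodes the D11 ratio was 0.75 [0.61, 0.89] for Junb and 0.18 [0.01, 0.34] for Jun. B1-like barcodes had D11 ratios of 1.01 [0.71, 1.32] for Junb and 1.32 [0.98, 1.66] for Jun.

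**Figure D4:**
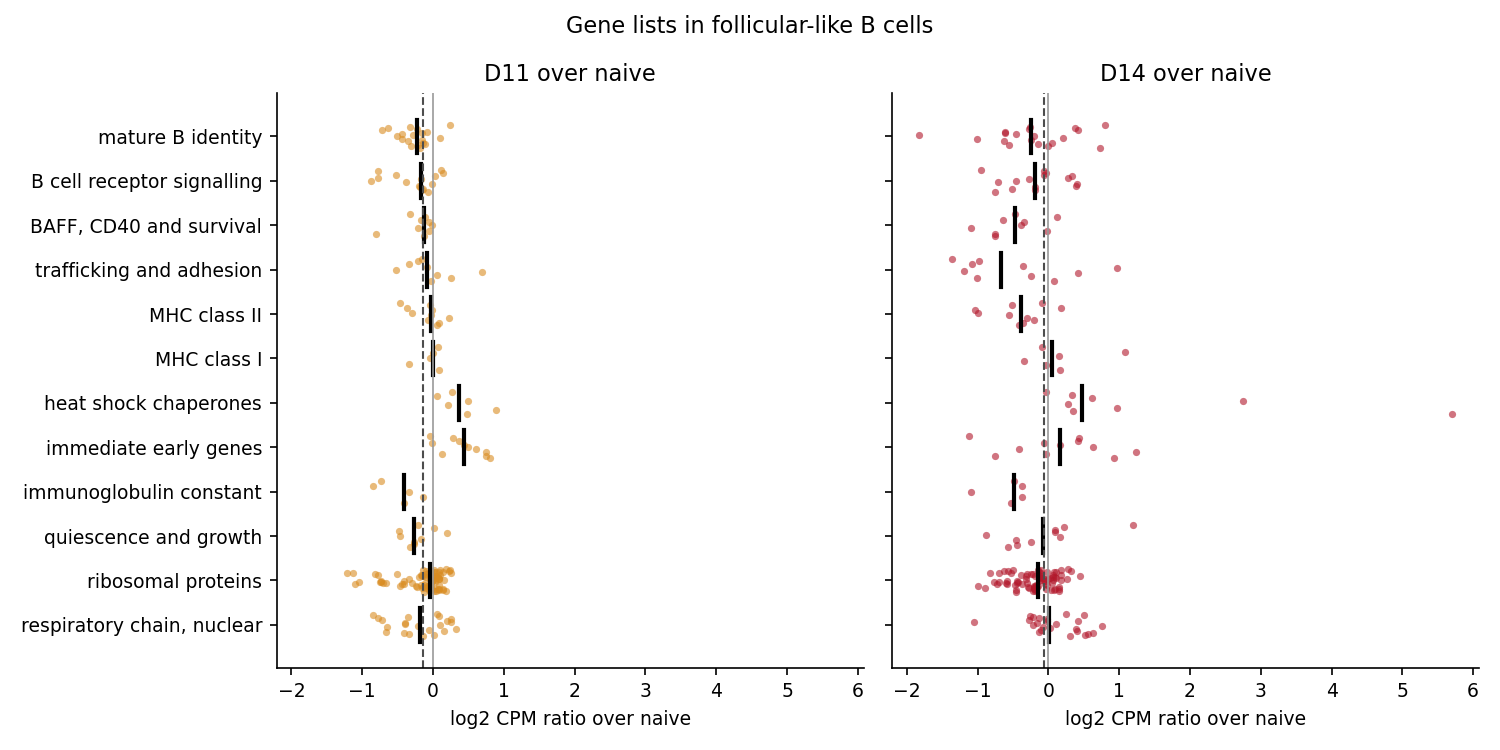
log2 CPM ratio over naive for each gene compared in 12 lists in follicular-like B cells at D11 (left) and D14 (right). Black bars are list medians, the dashed line is the median of all genes compared (-0.14 and -0.06) and the solid line is 0; heat shock chaperones and immediate early genes lie to the right at D11, and trafficking genes to the left at D14.

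Few listed genes of activation, switching or division could be compared. Immediate early genes are given above. Cd83, a surface protein of activated B cells in the mature B identity list, had ratios of 0.24 [-0.18, 0.65] at D11 and 0.80 [0.04, 1.49] at D14. Without carriers these were 0.49 and 0.48. Of 16 genes of activation, germinal centre and plasma cells 2 were compared, and Cd86 had 154, 167 and 133 CPM, with a D14 ratio of -0.22 that was -1.05 without carriers. Prdm1, the regulator of plasma cell fate, had 2, 1 and 1 UMIs. Of 13 cell cycle genes 2 were compared, and the proliferation markers Mki67 and Top2a had 0, 1 and 0 and 12, 2 and 3 UMIs. Few interferon-stimulated genes could be compared either: 3 of 19 at each time, with medians of 0.19 and -0.05, and Isg15 had 5, 22 and 1 UMIs. All 3 lay above 0 at D11, against 29.6% of all genes, and 1 of 3 at D14, against 45.8%. Without carriers 4 of 4 lay above 0 at D11, with a median of 0.34 where that of all genes was 0.02, and 2 of 3 at D14. Of the marginal zone and transitional list 5 of 12 were compared, and Cd24a, which is high on transitional cells, had 99.9, 173 and 218 CPM. Its D14 ratio of 1.13 [0.41, 1.79] was 0.22 without carriers, and 56.5% of its D14 UMIs lay in 1 member. Cd38 of the same list was at 0.88 at D14 and past 2-fold without carriers, at 1.11, so that 1 of 5 was at least 2-fold higher either way, against 4.66% of all genes, or 7.14% without carriers. Cd93 had 17, 6 and 0 UMIs. Of the quiescence and growth list, 2 of 9 genes compared were above 0 at D11 and 5 of 10 at D14, near the 29.6% and 45.8% of all genes, with medians of -0.27 and -0.08. Without carriers 5 of 10 were above 0 at each time, near the 52.8% and 54.9% of all genes, with medians of -0.05 and 0.01. Foxp1 (4800.1, 3994 and 3539 CPM) and Btg1 (1258, 1004 and 844 CPM) were highest in naive. None was past 2-fold at D11, while the translation factor Eif4a1 was the 1 of 10 at least 2-fold higher at D14, against 4.66% of all genes.

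Isotype UMIs are a description, since Ighd was part of the gate. Both Ighm and Ighd had a UMI in 175 members from naive blood (96.2%), 112 from D11 (96.6%) and 18 from D14 (94.7%). UMIs of switched isotypes were found in 2, 5 and 2 members and exceeded Ighm and Ighd in none. Per Ighd UMI, naive, D11 and D14 members held 1.90 [1.77, 2.04], 1.62 [1.47, 1.79] and 1.80 [1.36, 2.40] Ighm UMIs. In B1-like barcodes this ratio was 3.39 [3.13, 3.67], 3.93 [3.54, 4.36] and 7.5 [5.84, 9.77], and so lay above that of the members in each library with no overlap of intervals.

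Light chain UMIs were less mixed at D11. Members with at least 5 light chain UMIs were called kappa where at least 90% were Igkc and lambda where at most 10% were. Kappa members were 22 of 171 in naive (12.9% [8.24, 18.8]), 42 of 106 at D11 (39.6% [30.3, 49.6]) and 4 of 17 at D14 (23.5% [6.81, 49.9]), and lambda members were 3, 3 and 0, where 0 of 17 allows up to 19.5% (Clopper-Pearson). The other 146, 61 and 13 held both, and the median Igkc share of a member was 73.8%, 87.7% and 80.8%. The naive and D11 intervals of the kappa share do not overlap, and with at least 20 light chain UMIs the shares were 10.6%, 38.8% and 27.3%. Without carriers, kappa members were 21 of 161, 39 of 95 and 3 of 16. Among the lambda genes Iglc2 had 1020.3, 569 and 788 CPM, a log2 ratio of -0.84 at D11, while that of Igkc was -0.14. Median light chain UMIs per member were 36, 29 and 20. T marker barcodes, chosen to lack 3 B genes, had 1.10, 0.507 and 0 CPM of Iglc2 and 7.34, 17.2 and 30.2 CPM of Igkc. Heavy chain V segments were sparse and spread, with 122, 46 and 5 UMIs over 51, 25 and 5 segments, and the most frequent in naive, Ighv5-6, was found in 11 members.

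Members and B1-like barcodes had the fewest genes past 2-fold between them in the naive library. With the genes of both gates left out, 7 of 2008 genes were at least 2-fold higher in members (0.349%) and 7 at least 2-fold lower (0.349%) in the naive library, 22 (1.13%) and 53 (2.73%) of 1941 at D11, and 253 (11.2%) and 283 (12.5%) of 2260 at D14. With all sums thinned to the 105389 UMIs of the smallest, the genes past 2-fold either way were 12.3%, 15.1% and 26.5%, and the median absolute log2 ratio was 0.38, 0.43 and 0.58. Those sums had equal UMIs but not equal numbers of barcodes: the B1-like gate held 126, 89 and 14, and the D14 sums came from 19 members and 14 B1-like barcodes. Of the 7 genes higher in naive members, 6 were Hbb-bs, Hba-a1, Hba-a2, S100a8, S100a9 and Msrb1, with log2 ratios over B1-like barcodes of 4.77, 6.11, 4.85, 2.77, 2.73 and 1.35, and the other was Alcam, at 1.24. These values include carriers.

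The 4 genes given first were among those with the largest ratios of B1-like barcodes over members at D11 or D14. They were picked for that gap, so its size in leukemic blood is a description. Crip1 (chromosome 12 from 113146316 to 113153879), a LIM domain protein, had 213, 149 and 171 CPM in members but 320.5, 1052 and 2362 CPM in B1-like barcodes. Vim, the intermediate filament vimentin, had 187, 149 and 47.4 CPM against 230.0, 520.4 and 747 CPM, and Ahnak, a giant scaffold protein, 118, 72.4 and 133 CPM against 228, 498 and 858 CPM. Plac8 had 103, 97.5 and 47.4 CPM against 308, 409 and 546 CPM. Members lay between 47.4 and 213 CPM for all 4. T marker barcodes also had more Crip1 and Ahnak in leukemia, with D11 ratios of 1.48 [1.39, 1.57] and 1.39 [1.29, 1.49]. Cr2 and Cnr2, which were among the genes with the largest ratios of members over B1-like barcodes at D11 and D14, respectively, were lower in B1-like barcodes of leukemic blood than in members. Cr2 had 251, 242 and 256 CPM in members and 211, 88.6 and 44.6 CPM in B1-like barcodes, and Cnr2, the cannabinoid receptor of B cells, had 145, 120 and 209 CPM against 110, 68.9 and 11.1 CPM. The D14 values in B1-like barcodes rested on 8 UMIs of Cr2 and 2 of Cnr2. Cd83, a surface protein of activated B cells, had 109, 128 and 190 CPM in members and 79.9, 37.98 and 78.0 CPM in B1-like barcodes. At D14 the B1-like barcodes also held 295 CPM of Top2a, a marker of dividing cells, against 28.5 CPM in members.

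**Figure D5:**
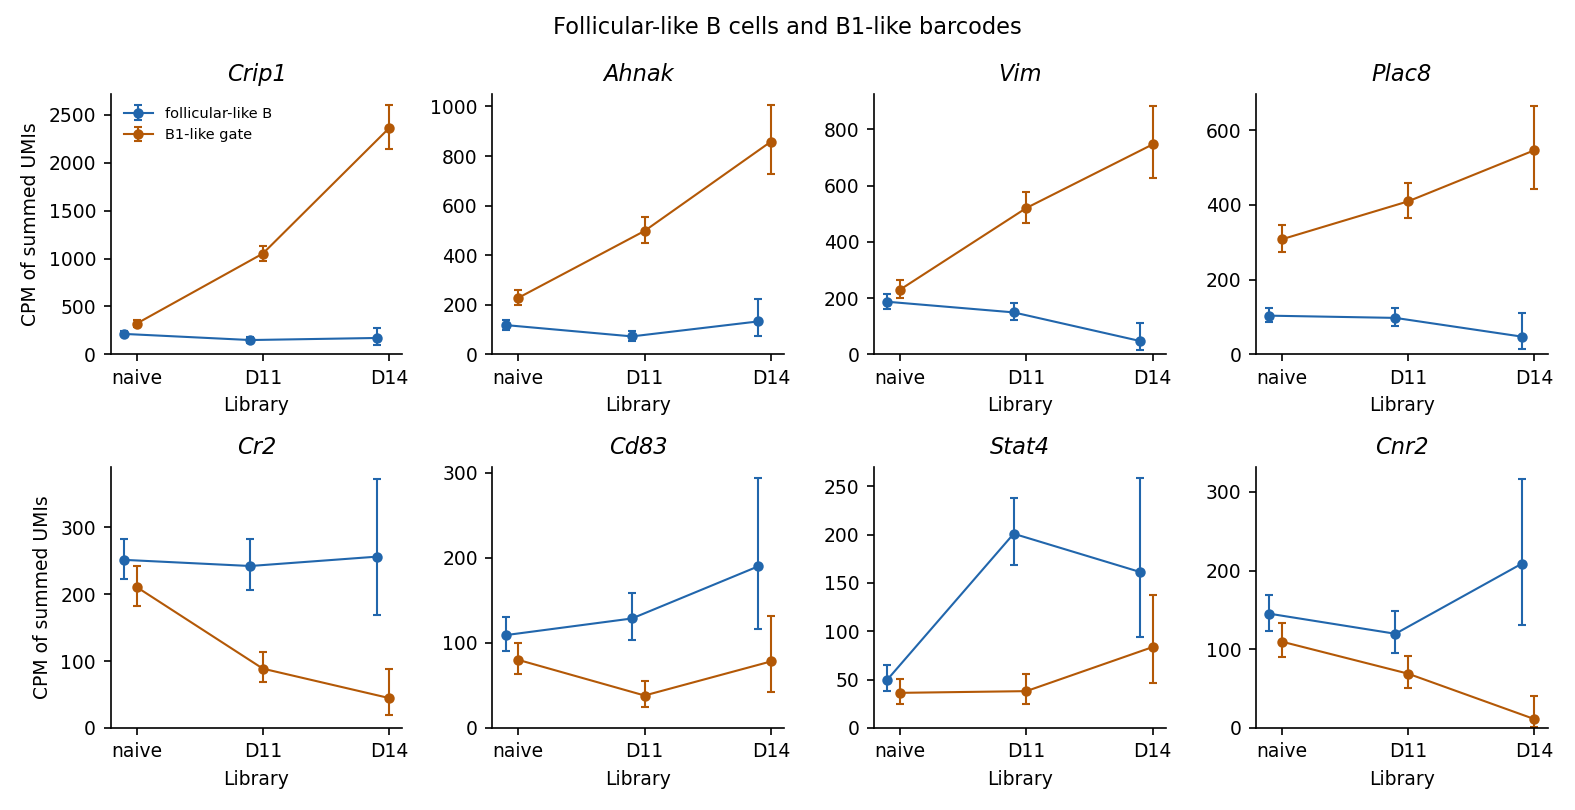
CPM of summed UMIs with exact 95% Poisson intervals (linear axes, libraries on the x axis) for 8 genes in follicular-like B cells and B1-like barcodes. Crip1, Ahnak, Vim and Plac8 have higher CPM in B1-like barcodes than in members in each library, while Cr2 stays between 242 and 256 CPM in members and is 44.6 CPM in B1-like barcodes at D14.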

How the data were processed

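The authors counted UMIs with Cell Ranger and deposited filtered matrices of raw counts without normalization. The labels name version 7.1.0 and build mm10, and the matrix headers version 5.0.1. Of 32285 gene identifiers 32158 were in GENCODE vM21. Library totals were 30362408, 57640396 and 65861863 UMIs over 5386, 8536 and 9337 deposited barcodes, of which pairs of libraries shared 12 to 18, none of them members. The deposited counts carry no cell type names. The members and lists were chosen with earlier results of these data known. UMIs of members were summed per library and given as CPM. Ratios have exact conditional binomial, sums Poisson and shares Clopper-Pearson intervals (scipy 1.17.1), at 95%. A count under the floor of 3 was set to it. Named were the 8 largest rises and falls at D11 and at D14, without gate, hemoglobin, V, D and J genes and shared symbols, and per list the largest D14 ratios and highest naive levels. Doublets were kept; their removal with Scrublet (scanpy 1.11.5) and TMM factors (edgeR 4.0.16) were alternatives. The procedure was tested on simulated data, with Poisson counts drawn from the summed naive profile. These hold no variation between members, so the simulation does not cover calls that rest on carriers or on single members. GRCm38 positions are from GENCODE vM21. The values of a few listed genes are not reported here.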

Additional observations from a re-analysis of the deposited data

Results flagged for a closer look

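Ahnak and Gab2 lay among the genes furthest below the B1-like barcodes at D11 and moved in opposite directions from naive to D11, by at least 1.5-fold each. Ahnak had a log2 ratio of -0.71 in members and 1.13 in B1-like barcodes, and Gab2 -1.06 in members and 1.87 in B1-like barcodes. Without carriers the ratio of Ahnak in members was -0.52, which is under 1.5-fold. Gab2 had 46.3 CPM in naive and 22.2 CPM in D11 members, the latter from 15 UMIs. It passed the 100 CPM minimum only through the B1-like sum at D11, where it had 121 CPM. Genes taken for a large gap at D11 are favoured to move apart, so the opposite moves are a description. Each value rests on 1 library per condition, and the difference was not tested.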

How the results depend on the processing

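No paired analysis was possible because each condition had 1 library. The D14 share over naive stayed within its interval under the 7 settings tried, and the D11 ratio of 0.532 was 0.744 with a stricter cell filter (500 genes or more, no more than 5% mitochondrial UMIs), 0.714 over barcodes with under 10% hemoglobin UMIs and 0.396 over all deposited barcodes, always below 1. Counts of genes past 2-fold depended on the settings more. The 20 genes higher at D11 were 32 with CPM without ribosomal, mitochondrial and hemoglobin genes, 42 with a minimum of 50 CPM and 103 with sums thinned to the smallest. The 18 lower were 70 with a minimum of 50 CPM, 10 with 200 CPM, 205 with thinned sums and 8 without carriers, a setting chosen after the data were seen. The 99 genes higher at D14 were 163 with the stricter cell filter and also without carriers, 166 with Ighd+Fcer2a at least 3, 180 with CPM without those genes, 156 as the mean of per-cell CPM, 305 and 32 with minimums of 50 and 200 CPM, and 170 with thinned sums. The 144 lower were 338, 38 and 244 with the last 3. Anxa1 at D11 turned from 1.74 to -0.51 with doublets removed and -0.34 without carriers. Of 399 recomputed list medians 393 moved by less than the counting error of their genes, and of 254 values for named genes 228 stayed within their interval. The kappa shares stayed within theirs. The 19 members at D14 hold 105389 UMIs, where 3 UMIs are 28.5 CPM, so single genes there carry wide counting intervals.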
